A study of Mus musculus with 8 samples.

Results

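Chromosome 8 of the mouse, the chromosome that carries Ucp1, held 2175 of the 32173 ATAC-seq summits (6.76%) in the list deposited for brown adipose tissue (BAT). A summit is the highest point of a peak in the ATAC-seq signal. The members were every summit on this chromosome in the mm10 build. The chromosome was selected on a measured value, its number of summits per transcription start site (TSS), so that this number is a description here and was not tested. Other counts of its summits per gene, per TSS or per window are tied to that choice. A first place in them is a description too. ATAC-seq was performed on BAT of 2 WT and 2 Dot1L-BKO mice, all kept on chow to 12 weeks of age and placed at 4 °C for 4 h before the tissue was taken. Dot1L-BKO mice carried floxed Dot1l and Cre driven by the Ucp1 promoter, so that Dot1l, the methyltransferase of histone H3 lysine 79, was deleted in Ucp1+ cells and not by this Cre in the vascular, immune and stromal cells of the same tissue. Each ATAC-seq library came from 1 mouse. The deposited list is 1 list for all 4 libraries, with WT named against Dot1L-BKO, and which of them served as treatment or control is not known here. If the libraries of 1 genotype served as the control, a summit and its score mark signal in excess of that genotype and not openness as such, and a site equally open in both could be missing from the list. Every count, score and missing summit given here is to be read with this limit. It gives no value for any single library, so that depth and the spread between mice are unknown and the genotypes were not compared.

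In ATAC-seq the Tn5 transposase cuts and tags DNA that is not wrapped in nucleosomes, so that reads gather at active promoters and at distal elements such as enhancers. Brown adipocytes burn fatty acids and glucose to make heat, and Ucp1, the uncoupling protein of the inner mitochondrial membrane, lets protons return to the matrix without making ATP. Transcription of Ucp1 rises in the cold through noradrenaline, beta-adrenergic receptors and protein kinase A, acting on a proximal promoter and on enhancer sequence upstream of it. BAT is a mixed tissue of adipocytes, endothelial cells, leukocytes and progenitors, and in bulk nuclei a site open in few cells cannot be told apart from a site that is weakly open in many.

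The sequence around 9 summits is shown first because the results turn on these regions. They are 5 summits of the Ucp1 locus, the 2 summits of highest score on the chromosome, the summit of highest score inside the span of the gene with the most summits, Gse1, and the summit of highest score inside Acsl1. Each is the + strand of GRCm38 (mm10), with 100 bp on each side of the summit, 201 bp in all. The Ucp1 promoter is cut to the 126 bp that lie upstream of its TSS. Capitals mark matches on either strand to TTGCNNAA, a short form of the site bound by C/EBP factors, and 11 short motifs were searched in all.
Ucp1 distal upstream, chr8:83278632-83278832: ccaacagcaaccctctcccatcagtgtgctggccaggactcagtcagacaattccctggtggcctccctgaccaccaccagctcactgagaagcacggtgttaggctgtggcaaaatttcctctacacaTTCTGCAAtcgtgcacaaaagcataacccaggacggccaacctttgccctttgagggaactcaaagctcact
Ucp1 upstream, chr8:83285541-83285741: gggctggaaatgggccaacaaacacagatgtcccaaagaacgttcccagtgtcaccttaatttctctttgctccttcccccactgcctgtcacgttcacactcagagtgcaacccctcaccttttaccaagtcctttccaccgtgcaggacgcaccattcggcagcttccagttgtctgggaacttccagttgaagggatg
Ucp1 near upstream, chr8:83287792-83287992: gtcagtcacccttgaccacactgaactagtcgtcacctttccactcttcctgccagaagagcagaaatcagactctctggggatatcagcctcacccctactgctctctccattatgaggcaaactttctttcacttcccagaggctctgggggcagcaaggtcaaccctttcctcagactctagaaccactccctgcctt
Ucp1 promoter, chr8:83290222-83290347: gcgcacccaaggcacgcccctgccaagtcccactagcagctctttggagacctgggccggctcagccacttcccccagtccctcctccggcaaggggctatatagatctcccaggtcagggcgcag
Ucp1 intron, chr8:83292566-83292766: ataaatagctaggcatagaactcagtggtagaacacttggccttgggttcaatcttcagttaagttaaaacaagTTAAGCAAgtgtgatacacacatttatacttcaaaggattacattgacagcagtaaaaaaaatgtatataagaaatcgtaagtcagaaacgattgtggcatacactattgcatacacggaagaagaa
Cars2 intron, chr8:11530828-11531028: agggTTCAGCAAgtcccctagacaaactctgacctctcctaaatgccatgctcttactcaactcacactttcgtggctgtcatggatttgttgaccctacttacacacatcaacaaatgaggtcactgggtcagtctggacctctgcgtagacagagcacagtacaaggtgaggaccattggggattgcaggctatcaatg
Slc25a42 promoter, chr8:70212479-70212679: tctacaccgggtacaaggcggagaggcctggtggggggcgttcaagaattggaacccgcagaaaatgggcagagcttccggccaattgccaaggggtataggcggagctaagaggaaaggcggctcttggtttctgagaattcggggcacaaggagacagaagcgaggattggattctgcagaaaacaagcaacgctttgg
Gse1 span, chr8:120437563-120437763: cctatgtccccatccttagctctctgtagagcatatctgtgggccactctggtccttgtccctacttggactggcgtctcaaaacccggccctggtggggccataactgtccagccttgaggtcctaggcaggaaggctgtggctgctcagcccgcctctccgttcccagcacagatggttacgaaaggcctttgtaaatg
Acsl1 intron, chr8:46482201-46482401: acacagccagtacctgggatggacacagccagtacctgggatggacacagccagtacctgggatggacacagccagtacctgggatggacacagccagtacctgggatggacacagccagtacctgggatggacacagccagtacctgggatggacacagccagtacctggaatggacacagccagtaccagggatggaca
The distal upstream and intron windows of Ucp1 and the window in Cars2 each held 1 match to the C/EBP pattern. Among all chromosome 8 summits more than 1 kb from a TSS, 152 of 1577 windows (9.64%) held this pattern. The Acsl1 window is a tandem repeat, in which 155 of 157 compared bases equalled the base 44 positions further on. This shift gave the best match of those tried, and the repeat unit seen in the sequence is shorter. The reference does not mark this summit base as repeat, and how reads that align in several places were handled is not given in the sources used here.

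Chromosome 8 had 1.80 summits for each RefSeq mRNA TSS, from 2175 summits and 1211 TSSs. This was the highest ratio of the 19 autosomes, whose other 18 values ran from 1.01 on chromosome 14 to 1.64 on chromosome 15, with a median of 1.27. Per Mb of sequence outside runs of N the chromosome was less extreme, at 17.3 summits per Mb and the fifth place, between 7.99 on chromosome 14 and 22.5 on chromosome 19. Its TSS density, 9.64 per Mb, lay close to the median of the other autosomes, 9.67 per Mb. Both kinds of summit counted toward the ratio. Within 1 kb of a TSS there were 0.494 summits for each TSS, against 0.489 on the next chromosome, and beyond 1 kb there were 1.30, against 1.18 on the next.

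**Figure D1:**
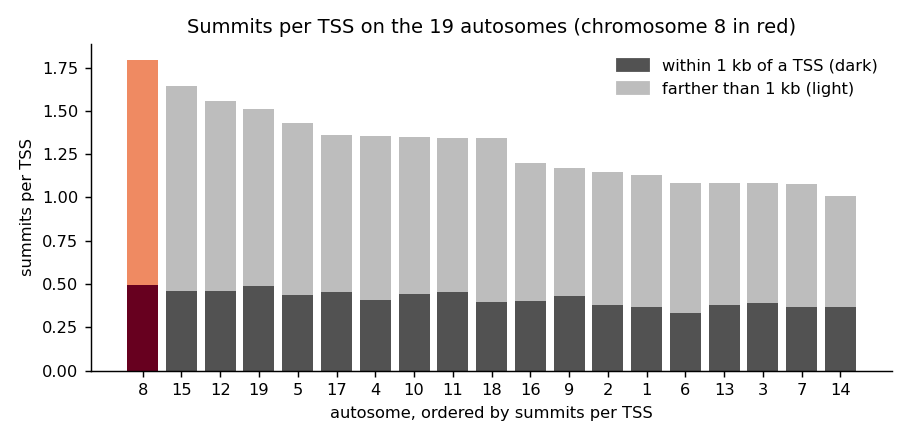
Summits per TSS on each of the 19 autosomes, ordered by height, with summits within 1 kb of a TSS in the dark lower part of each bar, those farther away in the light upper part, and chromosome 8 in red. The bar of chromosome 8 reaches 1.80, of which 1.30 is distal, and the next, chromosome 15, reaches 1.64.

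Most members lay away from promoters. Of the 2175 summits, 598 (27.5%, 95% Wilson interval 25.7 to 29.4) lay within 1 kb of a TSS, the lowest share of the 19 autosomes, although chromosome 15 had almost the same value, 28.0%, which lies inside this interval. The last place was kept with summits merged and with a window of 500 bp, but not under the other settings tried. It was rank 16 at a score of at least 10 and rank 14 with a window of 5 kb. At a score of at least 10 the share was 54.0%, so that most of those summits lay near a TSS. The remaining 1577 were distal, with 12.6 per Mb, and 908 of these distal summits (57.6%) lay inside a gene. By position, 342 summits (15.7%) fell in exons, 908 (41.7%) in introns and 925 (42.5%) in intergenic sequence, shares that all lay inside the range of the other autosomes. Exons and introns here are those of curated mRNAs. Intergenic sequence therefore includes parts of gene spans that only predicted transcripts cover. The summits also sat close together. The median distance to the nearest other summit was 2083 bp, against 1896 to 10212 bp on the other autosomes, and 67.2% of the summits had a neighbor within 5 kb. All intervals here cover counting error only.

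The score, which is the −log10 of the q-value that the peak caller gave each peak, was modest on chromosome 8. Its median was 4.61, rank 14 of 19 in a tie with chromosomes 5, 7, 11 and 15, and only chromosome 17 was lower, at 4.46. A score of at least 10 was reached by 472 summits (21.7%, interval 20.02 to 23.5), against 23.6% of all summits of the 19 autosomes. Promoter-proximal summits had a median of 8.12 and distal ones a median of 4.16. The highest score on the chromosome was 146. The highest scores of the other autosomes ran from 96.0 to 13426. Sequence that matched the mitochondrial genome lay at 1 summit of chromosome 8, at position 102024668 with a score of 12.2, and the summit base of 294 members (13.5%) was masked as repeat.

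Along the chromosome the summits were gathered in a few stretches. In windows of 5 Mb, the window from 120 to 125 Mb held 438 summits, which is 87.6 per Mb and the fourth highest of the 502 windows of all autosomes. This window alone held 98 TSSs and so 4.47 summits for each TSS, and 374 of its summits were distal. The window from 70 to 75 Mb held 275 summits with 123 TSSs, and that from 10 to 15 Mb held 191 with 63 TSSs. These 3 windows together carried 904 summits (41.6% of the chromosome) but 284 TSSs (23.5%), giving 3.18 summits for each TSS, the highest value when the 3 densest windows of every autosome were set side by side. The next was 2.60 on chromosome 2. Outside its 3 densest windows chromosome 8 had 1.37 summits for each TSS, below 1.44 on chromosome 15 and 1.41 on chromosome 12, so that without these windows it was the third.

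**Figure D2:**
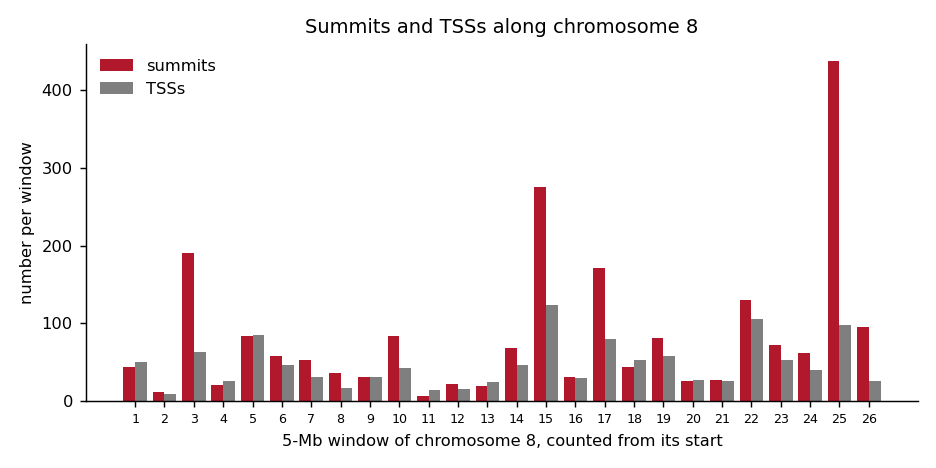
Number of summits (red) and of TSSs (grey) in each of the 26 windows of 5 Mb of chromosome 8, counted from its start, the last being shorter. The tallest window holds 438 summits and 98 TSSs, and the lowest holds 6 summits.

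The density of summits went with that of genes, and the densest window stood above the other windows of similar TSS number. Over the 26 windows of chromosome 8, the number of summits and the number of TSSs had a Pearson r of 0.78 and a Spearman rho of 0.84, and over the 476 windows of the other autosomes these were 0.78 and 0.85. Without the densest window r was 0.84 and rho was 0.83 over 25 windows. GC content went with summits per Mb to a similar extent, with r of 0.80 and rho of 0.85. These windows share 1 list and neighboring sequence, and gene density and GC content rise together along the genome, so that their parts cannot be told apart. The window that holds Ucp1, from 80 to 85 Mb, was in the upper part of the range, with 171 summits, 34.2 per Mb and 80 TSSs.

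**Figure D3:**
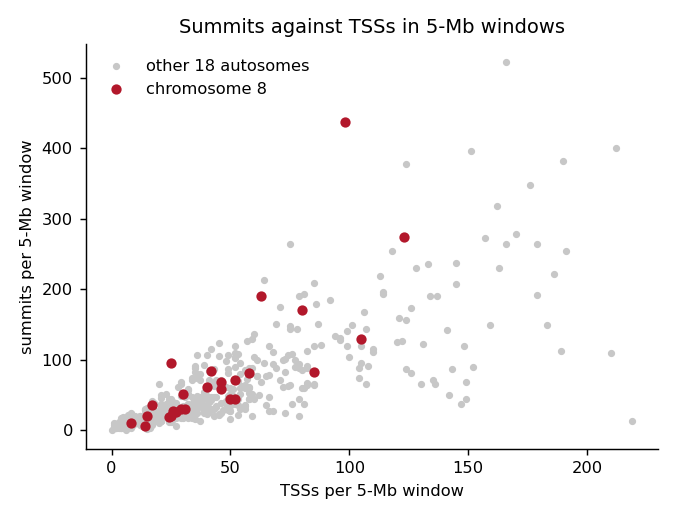
Summits against TSSs in windows of 5 Mb, for the 26 windows of chromosome 8 and the 476 windows of the other autosomes. The window with 438 summits and 98 TSSs lies well above the other chromosome 8 windows.

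The promoters of highest score in the dense windows belonged to genes of many functions. In the window from 120 to 125 Mb these were Gins2, a subunit of the GINS replication complex (score 86.2), Ankrd11, an ankyrin repeat chromatin regulator (62.5), Zfpm1, a cofactor of GATA factors (57.4), Banp (38.7) and Cdt1, a replication licensing factor (37.6). In the window from 70 to 75 Mb they were Slc25a42, a mitochondrial carrier of coenzyme A (118), Ell, an elongation factor of RNA polymerase II (92.7), Arrdc2, an arrestin-domain protein (81.9), and Tmem38a and Smim7, which share 1 summit (66.7). From 10 to 15 Mb they were Cln8, a membrane protein of the endoplasmic reticulum (78.8), Ing1, a reader of histone H3 lysine 4 methylation (57.6), Cul4a and Pcid2, which share 1 summit (39.3), and Naxd (26.1). Of these genes Slc25a42 stood in the list of mitochondrial proteins, and Ankrd11, Banp and Ing1 in that of chromatin proteins.

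Some of the dense stretches were single genes with many summits. Gse1, a coiled-coil protein, had 92 summits in its span of 353 kb, the most of all 20021 autosomal genes, and the next gene on any autosome was Tns1 with 67. The span includes predicted transcripts, and 27 of the 92 lay in exons or introns of its curated mRNAs. That number is below the counts of Col4a1 (39), Acsl1 (35) and Col4a2 (34), so that the first place rests on the wider span. The scores of the Gse1 summits were low, with a median of 3.75, 12 of them at 10 or more, and a highest score of 30.9 in the region shown above. Repeat-masked bases were found at 7 of the 92.

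Col4a1 and Col4a2, which encode the chains of basement membrane collagen IV and start head to head from 1 promoter, had 39 summits in 114 kb and 34 in 136 kb. They shared a single promoter summit of score 9.21. The median scores of their summits were 3.75 and 3.32. Acsl1, the long-chain acyl-CoA synthetase that activates fatty acids for oxidation, had 35 summits in 65.0 kb, the densest of these genes at 5.38 per 10 kb, and a promoter summit of score 90.5. Its summits had a median score of 5.55, and 6 of them reached 10. Cbfa2t3, a transcriptional corepressor of the ETO family, had 24 summits in 74.2 kb. By number of summits these genes ranked 9 (Col4a1), 10 (Acsl1), 11 (Col4a2) and 22 (Cbfa2t3) of the 20021 genes.

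Counted over the whole chromosome, 20 of 1014 genes (1.97%) had 10 or more summits in the gene body. This was the highest share of the 19 autosomes, with chromosome 19 next at 1.72%, and these 20 genes held 418 summits, or 19.2% of the members. The choice of the chromosome by summits per TSS favors a high place here, which was not tested. At a finer scale, 18 of the 146 windows of 100 kb with 20 or more summits on all autosomes (12.3%) were on chromosome 8, as were 65 of 681 with 10 or more (9.54%) and 30 of 300 with 15 or more, beside 6.85% of all autosomal summits. The fullest, chr8:70700001-70800000, held 42 summits and the genes Mast3, Pik3r2, Ifi30, Mpv17l2 and Rab3a. Other full windows were at Acsl1 with 38 summits and at Col4a1 with 37.

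Long parts of the chromosome held no summit. The longest such stretch, chr8:95887918-98845230, ran for 2.96 Mb from the promoter of Got2, the mitochondrial aspartate aminotransferase. The next, chr8:49616122-52307229, of 2.69 Mb, held no gene with a curated mRNA. The other 3 of the 5 longest were 2.39 Mb with Dlc1, Sgcz, Tusc3 and AI429214, 2.35 Mb overlapping the brain gene Csmd1, and 2.21 Mb with Unc5d, a netrin receptor of neurons. The window from 50 to 55 Mb had the fewest summits, 6 in all or 1.2 per Mb, and 2 of them were promoter summits, at Spcs3, a signal peptidase subunit (10.4), and Aga, a lysosomal hydrolase (8.65). The windows from 5 to 10 Mb and from 60 to 65 Mb held 11 and 19 summits, and among their promoters Clcn3, a chloride and proton exchanger, had the highest score at 30.1.

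The summit of highest score lay far from a promoter. It was in an intron of Cars2, the mitochondrial cysteinyl-tRNA synthetase, 19843 bp from the nearest TSS, with a score of 146. The other 9 of the 10 highest were all within 1 kb of a TSS. They were at Slc25a42 (118), Evi5l, a Rab GTPase-activating protein (107), Rfx1, a transcription factor (103), Ell (92.7), Acsl1 (90.5), Gins2 (86.2), Gatad2a, a NuRD subunit (84.1), Tom1, an endosomal sorting protein (83.0), and Arrdc2 (81.9). Of these, Slc25a42 and Acsl1 serve fatty acid activation and oxidation. Acsl1 had its highest promoter summit at 628 bp upstream of the TSS and Slc25a42 at 298 bp upstream, whereas the summit of Arrdc2 lay 2 bp inside the gene. A further Acsl1 summit, of score 14.0, lay 81 bp from another TSS of that gene.

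A promoter summit, within 1 kb of a TSS, was found at 547 of the 1014 genes of chromosome 8 (53.9%, interval 50.9 to 56.99), against 46.8% of the 20021 genes of all 19 autosomes. This was the highest share of the 19, with chromosome 19 next at 53.1%, which lies inside the interval. The first place was lost at a score of at least 5 (41.9%, rank 3) or 10 (28.4%, rank 2) and with all transcripts (37.9%, rank 4). It was kept under the other settings tried. The choice of the chromosome by summits per TSS favors a high place here too. Where a promoter had a summit, the median score was 10.9 on chromosome 8 and 10.9 over all autosomes. The gene lists below are read beside these 2 shares. They were described only, since they were chosen with results of these data known.

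**Figure D4:**
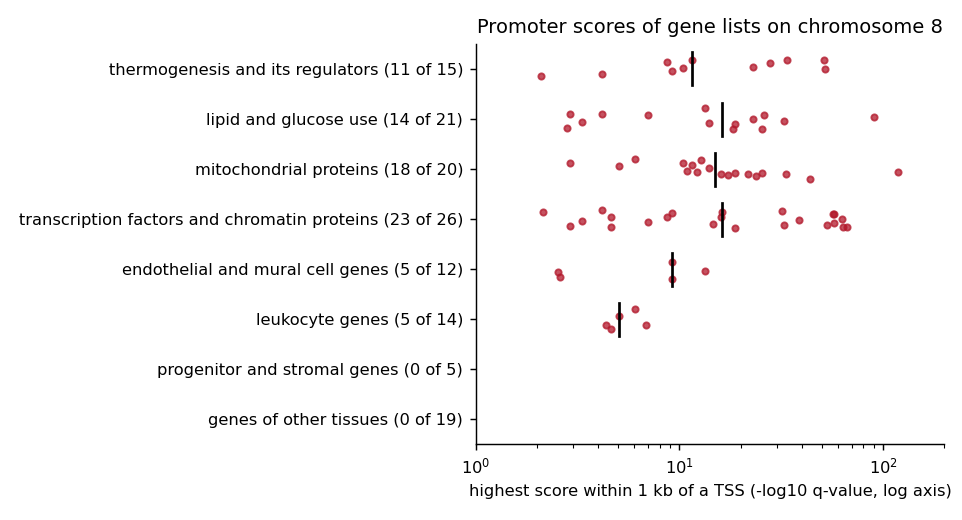
Highest score within 1 kb of a TSS (−log10 of the q-value, log axis) for each chromosome 8 gene with a promoter summit, by gene list, with 1 point per gene and a vertical line at the median of those genes. The numbers beside each list name give genes with a summit of all its genes, from 18 of 20 mitochondrial proteins to 0 of 19 genes of other tissues, and the points of the leukocyte genes do not pass 6.86.

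Of 15 genes of thermogenesis and its regulators, 11 (73.3%, interval 48.0 to 89.1) had a promoter summit. The highest scores were at Fto, an RNA demethylase (51.9), Irf2bp2, a transcriptional corepressor (51.0), Ucp1 (33.7), Prkaca, the catalytic subunit of protein kinase A (27.7), and Nr3c2, the mineralocorticoid receptor (23.1). The signaling genes were not alike. Prkaca had a promoter summit, whereas Adrb3, the beta3-adrenergic receptor, had its nearest summit 1479 bp inside the gene, with a score of 3.35, and Adcy7, an adenylyl cyclase, had it at 1394 bp, with 3.203. Zfp423, a repressor of the thermogenic program in white fat, and Gdf15, a secreted stress hormone, had none either. The nearest summit of Zfp423 was at 1351 bp (4.61) and that of Gdf15 at 1847 bp upstream (16.1). How many genes of the autosomes have a summit at such distances was not counted. The remaining members, Crtc1, Smad1, Fgfr1, Irx3, Irx5 and Pde4c, had scores from 2.09 to 11.5.

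Of 21 genes of lipid and glucose use, 14 (66.7%, interval 45.4 to 82.8) had a promoter summit, with a median score of 16.2. Acsl1 led (90.5), followed by Insr, the insulin receptor (32.5), Mvd, an enzyme of the mevalonate pathway (26.1), and Asah1, acid ceramidase (25.4). Lpl, lipoprotein lipase, which frees fatty acids from circulating triglyceride, had a promoter summit of score 23.1 at 66 bp upstream and 28 summits within 100 kb. Irs2, an adaptor of the insulin receptor, had its summit on the TSS base itself (18.8). No promoter summit was listed for Retn, an adipokine of white fat, for Ces1d and Ces1f, carboxylesterases that act on triglyceride, or for Lpcat2, Slc7a5, Gsr and Hsd11b2.

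Mitochondrial proteins had the highest share of the lists, with 18 of 20 (90.0%, interval 69.9 to 97.2). Slc25a42 (118) was followed by Mrpl34, a protein of the mitochondrial ribosome (43.7), Mpv17l2 (33.3), Vdac3, a channel of the outer membrane (25.4), and Pdp2, which activates pyruvate dehydrogenase (23.8). Genes of the respiratory chain lay on both sides of the median of the list, 15.03. Cox4i1, a subunit of cytochrome oxidase, had 14.0, Ndufa13 had 17.4 and Ndufb7 had 6.02, both subunits of complex I. Slc25a4, an ATP and ADP carrier, had 10.9. Tk2, mitochondrial thymidine kinase, and Slc25a15, the ornithine carrier, had no promoter summit.

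Transcription factors and chromatin proteins had a promoter summit at 23 of 26 genes (88.5%, interval 71.0 to 96.0). The highest scores were at Ing2 (66.4), Smarca5, the ISWI remodeling ATPase (63.7), Ankrd11 (62.5), Ing1 (57.6), Hmgb2 (57.2), the histone chaperone Asf1b (56.9) and the histone methyltransferase Nsd3 (52.8). Other chromatin proteins were among the lowest, with 4.61 at the acetyltransferase gene Kat6a, 4.61 at Ash2l, 4.16 at Brd7 and 2.92 at Ctcf. Of the AP-1 subunit genes, Junb had 32.5 and Jund had 3.32, and the zinc finger factor Klf2 had 18.6. Irf2, Zfhx3 and Maf had no promoter summit.

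Genes of the other cell types of BAT were described in the same way. Endothelial and mural cell genes had a promoter summit at 5 of 12 (41.7%, interval 19.3 to 68.0), with scores from 2.53 at Nrp1 to 13.4 at Efnb2. Of the endothelial markers, Cdh5, the VE-cadherin gene, had 2.59 and Plvap had no promoter summit. Col4a1 and Col4a2 are both counted in this list through their 1 shared summit of 9.21. They had 39 and 34 summits in the gene body. Leukocyte genes had one at 5 of 14 (35.7%, interval 16.3 to 61.2), with scores from 4.34 at Ifi30 to 6.86 at Jak3, and Cyba had 4.61 while Irf8 had none within 1 kb. Progenitor and stromal genes had 0 of 5, Pdgfrl and Mmp2 included, a number that allows a share of up to 43.4% (Wilson). With 0 of 19, genes of other tissues such as the liver genes F7, F10 and Hp and the neuronal genes Csmd1 and Cntnap4 also had no promoter summit, which allows a share of up to 16.8% (Wilson).

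Clustered gene families of the chromosome were mostly without promoter summits. The 28 Defa genes and 24 Defb genes, defensins of gut and epithelia, had 0, as had the 19 Ces carboxylesterase genes. Among the 4 metallothionein genes, which bind zinc and copper, Mt1 (41.0) and Mt2 (25.4) had a promoter summit, and the brain and epithelial members Mt3 and Mt4 had none. Irx3 (8.65) and Irx5 (4.16) had one and Irx6 did not. Of the 8 cadherin genes, Cdh5 and Cdh15 had one. Near-identical copies such as the Defa genes share sequence, and reads in them may not be placed uniquely, so that their 0 is uncertain.

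Ucp1, at chr8:83290348-83298456 on the + strand, lay in a cluster of summits. Its promoter summit was 26 bp upstream of the TSS, with a score of 33.7, rank 81 of the 2175 members. Upstream there were summits at 2456 bp (16.7), 4707 bp (13.7), 5673 bp (11.01) and 11616 bp (28.2), and farther away at 19048 bp (2.15), 29705 bp (8.07) and 59793 bp (2.26). Downstream of the TSS there were summits at 2318 bp (17.2) and 7160 bp (26.6), both in introns, at 4943 bp in an exon (10.05), and at 9756 bp, past the end of the gene (11.6). The summit at 42289 bp (29.3) belonged to the promoter of Elmod2.

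Within 10 kb of the Ucp1 TSS there were 8 summits, and all 8 had a score of at least 10. The median autosomal gene had 1 summit in such a window, and 342 of 20021 genes (1.71%) had as many as Ucp1 or more, of which 28 were on chromosome 8. On this chromosome the highest number was 12, at Pik3r2, Ifi30, Rab3a and Mpv17l2, which share 1 stretch of DNA, and Acsl1 had 11. In wider windows Ucp1 was less apart. Within 100 kb it had 13 summits, and 3847 genes (19.2%) had as many, so that the cluster was a short-range one. Of its 13 summits 10 scored 10 or more, namely the summit of Elmod2 and 9 that lay no farther than 11616 bp from the TSS.

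**Figure D5:**
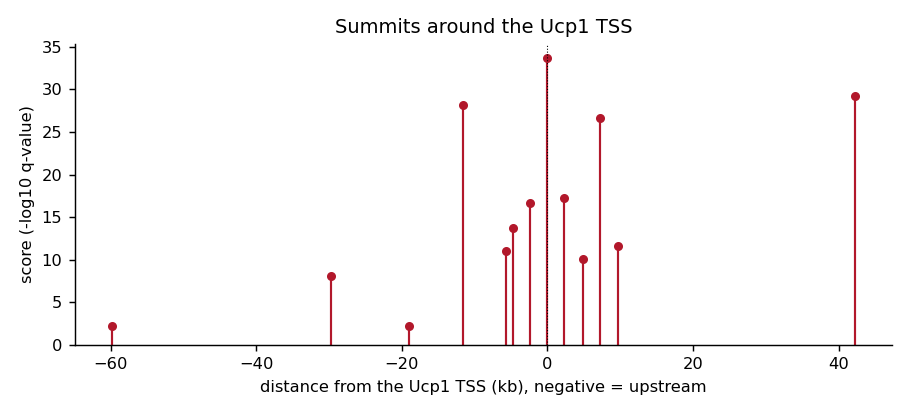
The 13 summits within 100 kb of the Ucp1 TSS, each drawn as a line with its score (−log10 of the q-value) on the vertical axis against its distance from the TSS in kb, negative upstream; the dotted line marks the TSS. The promoter summit at 33.7 is the tallest, and 8 summits lie within 10 kb.

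Sequence around the members was like that of the other autosomes in base composition. The median GC content of the 201-bp windows was 56.2%, equal to the median over the other 18 autosomes. The C/EBP pattern TTGCNNAA was found in 9.64% of the distal windows (152 of 1577, interval 8.28 to 11.2), the lowest share of the 19 autosomes, whose other values ran from 10.2 to 20.6%. The EBF pattern CCCNNGGGA, for factors that with C/EBP and PPARg specify brown adipocytes, was in 8.62% of distal windows, rank 18 of 19, between 6.90 and 15.7% elsewhere. The C/EBP and EBF patterns were thus less frequent at distal members than at distal summits of most other autosomes, a difference that was not tested. The DR1 pattern GGTCANAGG was in 2.03% of distal windows, rank 14, beside a median of 2.25% on the other autosomes. The AP-1 pattern TGANTCA was in 7.61% of distal windows, near the middle of the range, and in 2.34% of promoter-proximal windows (14 of 598), rank 18 of 19. The CTCF pattern CAGGGGGC was in 2.22% of distal windows, rank 4.

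At promoter-proximal members the SP/KLF pattern GGGGCGGGG was in 43 of 598 windows (7.19%, rank 18 of 19), against 6.71 to 11.02% elsewhere. The cAMP response element TGACGTCA, the palindrome bound by CREB, was in 2.84% of promoter-proximal windows, rank 3, and in 0.254% of distal windows, rank 19, the latter resting on 4 windows. The patterns ETS CCGGAAGT, NRF1 GCGCATGCG, YY1 AAGATGGCG, ERR TCAAGGTCA and DR1 held ranks from 6 to 16 in both kinds of window. All patterns were searched on both strands. Matches of different patterns were allowed to overlap, and a match is a description of letters, not of a bound factor.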

How the data were processed

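The authors made ATAC-seq libraries from nuclei of BAT, 2 from WT and 2 from Dot1L-BKO mice, each from 1 mouse. The submitters' processing notes name bcl2fastq 2.2, cutadapt 1.2.1, BWA and MACS2 2.1.1, and the build is mm10. In the list that the authors deposited, each peak has 1 position and a score, the −log10 of its q-value. The paper states that MACS2 was run in an ATAC mode, with cutoffs on q-value and on fold enrichment. How far reads were shifted for the transposase is not given in the sources used here. Handling of multi-mapped and mitochondrial reads is not given either. No column of per-sample values was present in the list, so that depth, replicate error and genotype could not be assessed. RNA-seq libraries were not analysed here.

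Summits were placed on the RefSeq annotation of GRCm38, which is mm10, with TSSs of curated mRNAs and a promoter window of 1 kb. Counts per autosome, per window of 5 Mb and per gene were described with no test. Shares have 95% Wilson intervals. Windows of 100 bp on each side were searched for short patterns, and matches to the mitochondrial genome were sought with blastn 2.17.0 (e-value limit 1e-10). The counting was tested on simulated data. The work used matplotlib 3.10.9, scipy 1.17.1, pandas 2.3.3 and numpy 2.4.6 under Python 3.11.15.

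The genes named were members of the gene lists, the genes at the 10 summits and 5 promoters of highest score, the 5 genes with most summits, up to 5 genes of highest promoter score in the densest and sparsest windows of 5 Mb, and genes in the 5 longest stretches with no summit. Genes of the fullest windows of 100 kb and of the fullest 10-kb neighborhoods, Elmod2 and Tns1 were named after their values were seen. The members and lists were chosen with earlier results of these data known. Alternatives changed the score minimum, merging, masking, promoter window, transcripts and window size.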

Additional observations from a re-analysis of the deposited data

How the results depend on the processing

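The chromosome was chosen for its summits per TSS in this list. The places below are therefore a description and were not tested. Chromosome 8 kept the highest number of summits per TSS with a score of at least 5 (0.846) or 10 (0.390), with masked summit bases left out (1.55) and with summits within 500 bp merged (1.76). With all annotated transcripts, predicted and noncoding included, it was 0.556, below 0.563 on chromosome 19. Of 2 alternatives chosen after seeing the data, leaving out TSSs of silent families gave 1.88, and leaving out the 3 densest windows of each autosome gave 1.37, the third place. In the same order of scores of at least 5 and 10, summits per Mb were 8.15 and 3.76, the share within 1 kb of a TSS 39.7% (rank 18) and 54.0% (rank 16), the median score 9.21 and 17.3, the share of genes with a promoter summit 41.9% (rank 3) and 28.4% (rank 2), and distal summits per Mb 4.91 and 1.73. The counts fall and the median rises by construction, since low scores are left out. The share within 1 kb rose beside median scores of 8.12 near a TSS and 4.16 farther away. Without masked summit bases there were 14.975 summits per Mb, 30.9% within 1 kb (rank 18) and 10.3 distal summits per Mb. With promoter windows of 500 bp and 5 kb, the share within the window was 22.1% (rank 19) and 43.9% (rank 14), that of genes 49.4% and 59.0%, and distal summits per Mb 13.5 and 9.72. With all transcripts these were 35.6% (rank 16), 37.9% (rank 4) and 11.2. The densest window held 118 summits per Mb at 2 Mb (from 70 to 72 Mb), 57.3 at 10 Mb and 14.8 with a score of at least 10. Around Ucp1, 13 summits lay within 100 kb and 53 within 500 kb. Where no construction is named, the cause was not tested. No paired analysis was possible because libraries have no values of their own here, and leaving out each replicate was not run for the same reason. Read depth is unknown, and the roles of the genotypes in peak calling are not known, so that a promoter with no summit may be closed, below detection or equally open in both genotypes, which cannot be told apart.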
